A study of Mus musculus with 10 samples.

Results

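The mitochondrial genome is a small circular chromosome whose own transcripts were counted beside those of the nuclear genes. Its members here are the rows of the deposited count table whose gene symbol begins with mt-, a rule that uses names only and no measured value. There are 28 such rows of 15883 in all: 2 ribosomal RNAs (rRNA), 12 protein-coding genes and 14 transfer RNAs (tRNA). GENCODE annotates 37 genes on this chromosome, and the other 9 (mt-Nd4l and the tRNA genes mt-Tf, mt-Tv, mt-Tw, mt-Td, mt-Tk, mt-Tr, mt-Tl2 and mt-Tt) were not analysed here.

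The samples were biceps femoris, a hindlimb skeletal muscle, from 10 male C57BL/6J mice aged 5 weeks that ate normal chow and were fasted for 16 hours before collection. Of these, 5 were wild type and 5 carried a transgene for Zfp407, a zinc finger protein of the nucleus. The promoter of the transgene is not given in the sources used here. The columns of the table name the group of a library and not the mouse, so libraries are called wild-type library 1 to 5 and transgenic library 1 to 5.

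Mitochondrial DNA is transcribed from both strands as long polycistronic RNAs, which are cut at the tRNAs that punctuate them to release the rRNAs, mRNAs and tRNAs. The heavy-strand transcript carries both rRNAs and nearly all mRNAs, while mt-Nd6 and several tRNAs come from the light strand. The encoded proteins are subunits of respiratory complexes I, III, IV and of ATP synthase, the machinery of oxidative ATP production in muscle fibres, while every protein that replicates, transcribes and processes the genome is imported from nuclear genes.

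Part of the mitochondrial sequence has near-identical copies in the nuclear genome, which decides what a read count can mean for a mitochondrial row. A block on the minus strand of chromosome 1, chr1:24611535-24616197 (GRCm38), spans 4663 bases and holds 7 annotated pseudogenes that match mitochondrial genes, and none of the 7 is among the rows analysed here. Gm28661 matched 681 of the 684 bases of mt-Co2 with 100% identity, and Gm10925 and Gm28437 did the same over 678 bases of mt-Atp6 and 783 bases of mt-Co3. Gm28438 matched 345 bases of mt-Nd3 with 1 mismatch. Gm28439 covered 876 of the 1378 bases of mt-Nd4, and Gm29216 covered the last 483 of the 1545 bases of mt-Co1 with 1 mismatch. The other copy in the block, Gm10222, matched mt-Nd4l, which was not analysed here. Less similar annotated copies of mt-Nd2, mt-Nd5, mt-Nd6 and mt-Cytb, whole or in part, lie on other chromosomes. A separate copy on chromosome 2, Gm13341, was 95.9% identical to mt-Co2 and is a row of the table.

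The sequences below show how close these copies are at the start of mt-Co2 (chrM:7013-7102, plus strand) and of its copies Gm28661 (chr1:24615476-24615565, minus strand) and Gm13341 (chr2:22587873-22587962, minus strand). They come from the GENCODE M21 transcripts on GRCm38 and run 5′ to 3′. Capitals mark the bases of Gm13341 that differ from mt-Co2, C25T and G57A, counted from 1 at the 5′ end of mt-Co2. Gm28661 has no difference in this stretch.
mt-Co2: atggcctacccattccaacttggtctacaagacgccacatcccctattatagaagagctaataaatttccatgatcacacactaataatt
Gm28661: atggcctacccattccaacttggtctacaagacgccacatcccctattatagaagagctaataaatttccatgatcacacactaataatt
Gm13341: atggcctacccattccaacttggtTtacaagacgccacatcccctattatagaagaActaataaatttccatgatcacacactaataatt

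The only mismatches of the chromosome 1 block within the aligned stretches of mt-Nd3 and mt-Co1 are shown in the same way. The windows are chrM:9459-9476 for mt-Nd3, chr1:24613102-24613119 (minus strand) for Gm28438, chrM:6390-6408 for mt-Co1 and chr1:24616170-24616188 (minus strand) for Gm29216. Capitals mark the mismatched base, T3C for mt-Nd3 and A1066T for mt-Co1, counted from the 5′ end of each mitochondrial gene.
mt-Nd3: atTaacctgtacactgtt
Gm28438: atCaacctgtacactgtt
mt-Co1: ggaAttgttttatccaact
Gm29216: ggaTttgttttatccaact

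Among the protein-coding rows, those copied almost whole in annotated pseudogenes on chromosome 1 had the fewest counts. mt-Co2, mt-Atp6, mt-Co3 and mt-Nd3, each copied over more than 90% of its length at 99% identity or more, had 77 to 2887 counts over all 10 libraries and 0.681 to 50.1 CPM per kilobase, where CPM is the count of a gene relative to the total of its library. The other 8 protein-coding rows, mt-Atp8 among them, had 65440 to 1651638 counts and 787 to 6477 CPM per kilobase. The highest copied row, mt-Nd3, was thus 15.7-fold below the lowest of the others, mt-Nd6, and the 4 copied rows gave 0.0962% of the counts of mitochondrial protein-coding genes. mt-Atp8 lies between mt-Co2 and mt-Atp6 on the mitochondrial genome and stood at 2885 CPM per kilobase. No copy of it over at least 50 bases was found among the annotated transcripts. Its last 43 bases are also the first of mt-Atp6, however, and so lie within the match of Gm10925. The 233 bases between Gm28661 and Gm10925 belong to no annotated copy, so their sequence was not compared here. The matched parts of mt-Co2 and mt-Atp6 lie equally far apart on the mitochondrial genome, with most of mt-Atp8 between them. Whether mt-Atp8 is copied in the block was not tested. How the counting treated reads with more than 1 placement is not given in the sources used here, and its part in these low counts was not tested. For the 4 copied rows, and for the copied parts of mt-Co1, mt-Nd4 and mt-Atp8, the counts are therefore uncertain as levels. This is because an identical read cannot be told apart from its copy. The tRNA genes mt-Ts1 and mt-Tg lie between mitochondrial genes whose copies are neighbours in the block. Those copies lie as far apart as the matched stretches of the mitochondrial genes do. The bases between them were not compared, so whether both tRNA genes are copied there was not tested.

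mt-Atp8 and mt-Atp6 also overlap each other. The end of mt-Atp8 (chrM:7907-7969, plus strand) is printed with the 43 bases shared with mt-Atp6 in capitals.
mt-Atp8: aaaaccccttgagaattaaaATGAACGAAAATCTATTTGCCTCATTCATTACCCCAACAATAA

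All CPM values use library totals after TMM adjustment, a scaling that sets the bulk of genes equal between libraries. Total counts ran from 13530367 to 17814900 per wild-type library and from 15162400 to 19047834 per transgenic library. Zfp407 stood at 22.9 ± 1.73 CPM in wild-type muscle and 489 ± 124 CPM in transgenic muscle (SD, n = 5 each); reads of the transgene and of the mouse's own gene are counted together. Summed markers of skeletal muscle fibres ran from 89858 to 119840 CPM in wild-type muscle and from 82524 to 122948 CPM in transgenic muscle, so the labelled tissue was seen in every library. Markers of hepatocytes summed to 69.9 to 202 CPM in wild-type muscle and 367 to 5579 CPM in transgenic muscle, with 10 of 10 called higher, and were highest in transgenic libraries 4 and 5. Of the leukocyte markers 1 of 5 tested was called higher, and none of the adipocyte, erythroid or oxidative fibre markers was called. The oxidative fibre markers, which mark the fibres richest in mitochondria, summed to 1470 to 3938 CPM in wild-type muscle and 1559 to 3378 CPM in transgenic muscle. The part of these other transcripts in the results below was not tested, beyond the values given without transgenic libraries 4 and 5. In whole muscle, fewer cells of a type and less RNA per cell cannot be told apart.

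Mitochondrial transcripts were a large part of every library, and most of them were rRNA. The 28 rows took 11.2%, 11.2%, 10.9%, 14.0% and 11.7% of the counts in wild-type libraries 1 to 5 and 12.4%, 15.8%, 11.7%, 15.5% and 14.96% in transgenic libraries 1 to 5. The groups overlapped, with transgenic library 3 inside the wild-type range and wild-type library 4 above transgenic libraries 1 and 3. The means were 11.8% ± 1.27 in wild-type muscle and 14.1% ± 1.88 in transgenic muscle (SD, n = 5 each), a difference of 2.26 percentage points. These shares depend on what else was counted. The rows Lars2, Gm15564 and Gm15662 alone took 14.3% to 33.9% of each wild-type library and 9.62% to 17.3% of each transgenic library. Without these 3 rows the mitochondrial share was 15.4% ± 1.70 in wild-type muscle and 16.4% ± 1.98 in transgenic muscle (SD, n = 5 each), a difference of 0.947 percentage points. As sums over chosen rows, these shares are given as a description with no test.

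**Figure D1:**
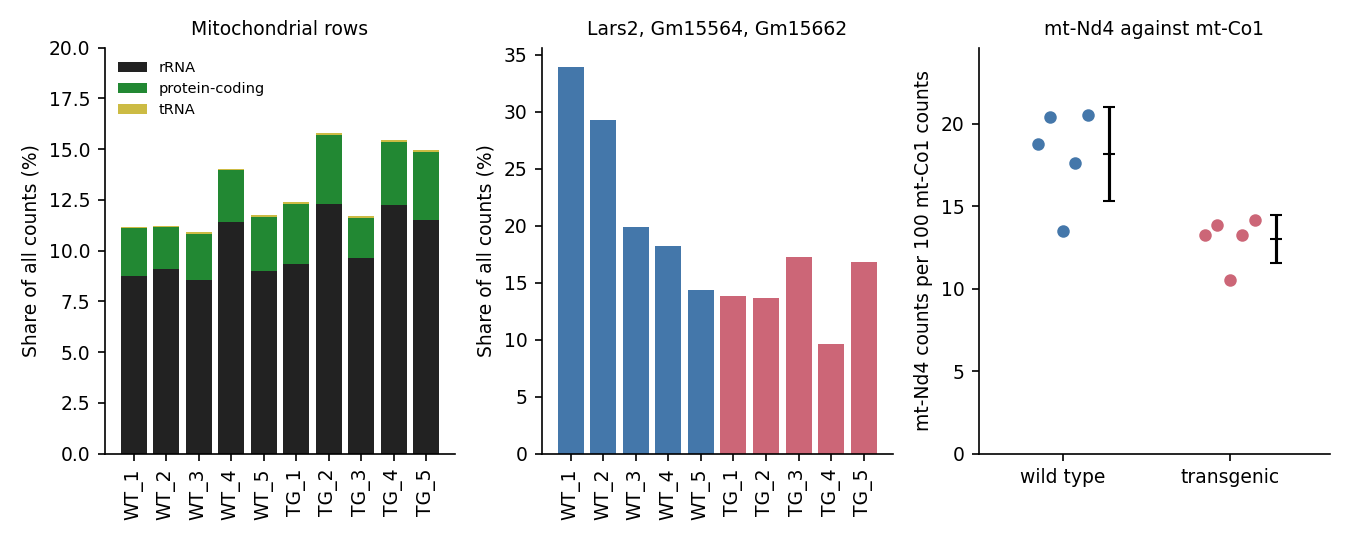
Left, percent of each library's counts from the mitochondrial rows, stacked by class, for wild-type libraries 1 to 5 (WT_1 to WT_5) and transgenic libraries 1 to 5 (TG_1 to TG_5); middle, percent from Lars2, Gm15564 and Gm15662; right, counts of mt-Nd4 per 100 counts of mt-Co1, 1 point per library with the mean and SD (n = 5 each). The mitochondrial totals overlap, from 10.9% to 14.0% in wild-type muscle and from 11.7% to 15.8% in transgenic muscle, and in the mt-Nd4 ratio wild-type library 3 alone lies within the transgenic range. The mt-Nd4 ratio was not planned and has no test.

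Within the mitochondrial counts the share of each class overlapped between the groups. The rRNA rows held 79.2% ± 1.93 of the mitochondrial counts in wild-type muscle and 78.3% ± 2.47 in transgenic muscle (SD, n = 5 each), and the protein-coding rows a mean of 20.2% and 20.9%. The tRNA rows gave 0.0733% ± 0.0114 of all counts in wild-type muscle and 0.108% ± 0.0104 in transgenic muscle (SD, n = 5 each). Their range was 0.0596% to 0.0890% in wild-type muscle and 0.0998% to 0.126% in transgenic muscle, without overlap. This share of all counts also falls as Lars2, Gm15564 and Gm15662 rise, and the tRNA share of the mitochondrial counts overlapped between the groups. Most of the tRNA count came from 1 row, mt-Ts1, whose CPM values are given further on.

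Of the 28 rows, 24 passed the filter on low counts and were tested across the whole table with edgeR's quasi-likelihood test. The 4 that did not pass were mt-Co2 with 77 counts over all libraries, mt-Tl1 with 104, mt-Th with 56 and mt-Ts2 with 43. A single row, mt-Tm, passed an adjusted p of 0.05 and was higher in transgenic muscle, and none was called lower. Of all 13338 genes tested, 4.28% were called higher and 1.05% lower, 5.33% in all. The count of called rows is thus near the background and says nothing particular about the mitochondrial genome. At an unadjusted p under 0.05 there were 2 rows, mt-Tm and mt-Ts1, against 18.1% of all genes. The median log2 fold change of the 24 rows was -0.0038 with a range from -0.35 to 1.24, beside a median of 0.003 for all genes, with 11 rows above 0 and 13 below.

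Wild-type and transgenic libraries did not overlap for 1 of the 24 rows, again mt-Tm, against 8.04% of all genes, or 5.14% of all genes in the upward direction. The TMM factors themselves did not overlap, at 0.814 to 1.01 in wild-type muscle and 1.02 to 1.16 in transgenic muscle. With library totals and no further scaling, the median of all genes moved up by 0.26 on the log2 scale, and 3 mitochondrial rows were called, mt-Tm, mt-Ts1 and mt-Atp6. In that setting 2014 of all 13338 genes were called. DESeq2 called 2 of the mitochondrial rows, mt-Tm and mt-Ts1, against 7.74% of all rows it tested. Both are also below an adjusted p of 0.05, and higher with the transgene, in the authors' deposited table, where 7.29% of rows are called and 5.52% are called higher.

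**Figure D2:**
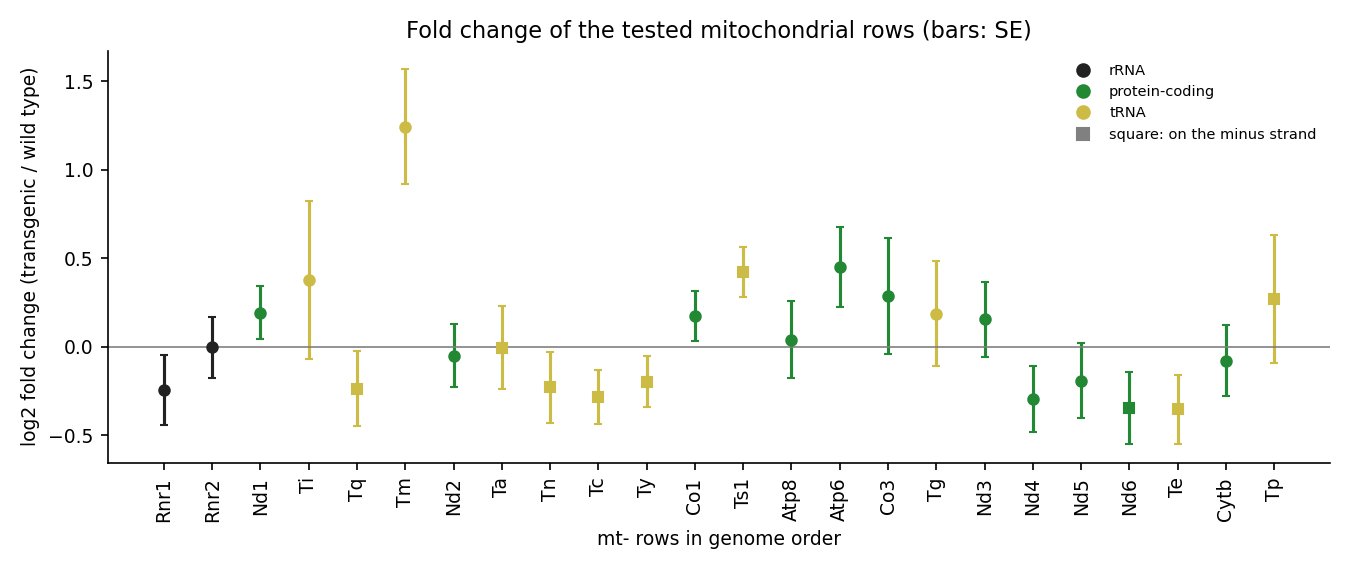
Log2 fold change, transgenic over wild type, of the 24 mitochondrial rows tested, with bars for the standard error, in map order, with symbols given without the mt- prefix. mt-Tm at 1.24 stands apart from the other rows, which lie between -0.35 and 0.45.

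The large rRNA was the most abundant mitochondrial transcript and did not separate the groups. mt-Rnr2 (chrM:1094-2675, plus strand), the RNA of the large mitochondrial ribosomal subunit, had 91263, 88243, 75904, 107124 and 85190 CPM in wild-type libraries 1 to 5 and 71193, 94639, 82503, 98960 and 99700 CPM in transgenic libraries 1 to 5. The lowest and the highest value of all 10 libraries were transgenic library 1 and wild-type library 4, so the groups overlapped throughout. The means were 89545 ± 11388 CPM and 89399 ± 12288 CPM (SD, n = 5 each), and the log2 fold change was -0.0024 ± 0.17 (SE; adjusted p = 0.996 by edgeR).

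mt-Rnr1 (chrM:70-1024, plus strand), the RNA of the small mitochondrial ribosomal subunit, had 16161, 15854, 8848, 15765 and 10173 CPM in wild-type libraries 1 to 5. In transgenic libraries 1 to 5 it had 9543, 12654, 9897, 11276 and 13103 CPM. The wild-type libraries were spread widely, with libraries 1, 2 and 4 above every transgenic library and library 3 below every one. The log2 fold change was -0.24 ± 0.20 (SE; adjusted p = 0.587 by edgeR).

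Both rRNAs lie next to each other on 1 transcript, and the SD of their ratio was larger over the wild-type than over the transgenic libraries, a difference that was not tested. mt-Rnr2 had 5.65, 5.57, 8.58, 6.80 and 8.37 counts per count of mt-Rnr1 in wild-type libraries 1 to 5 and 7.46, 7.48, 8.34, 8.78 and 7.61 in transgenic libraries 1 to 5. The means were 6.99 ± 1.44 and 7.93 ± 0.593 (SD, n = 5 each), and the ranges overlapped. Per kilobase, mt-Rnr2 stood at 56556 CPM and mt-Rnr1 at 12908 CPM over all libraries.

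**Figure D3:**
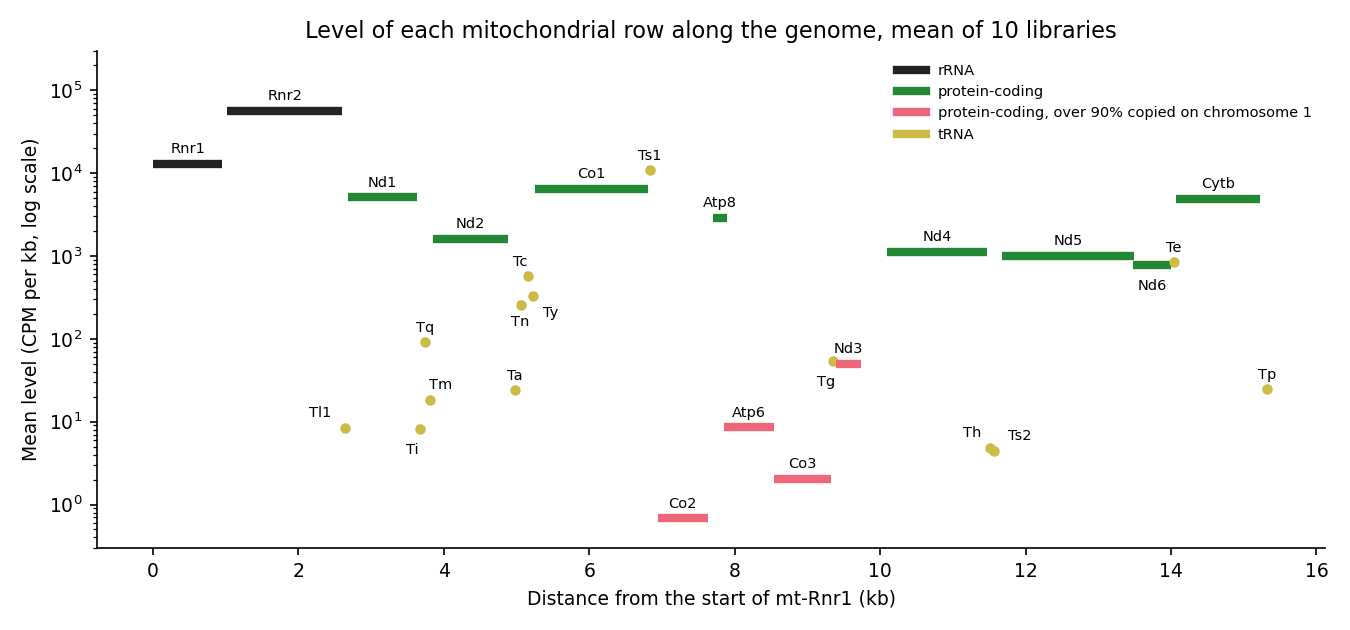
Mean level of each mitochondrial row over the 10 libraries, in CPM per kilobase of gene length on a log axis, against its distance along the genome from the start of mt-Rnr1 in kilobases. mt-Rnr2 is highest at 56556 CPM per kilobase, and mt-Co2, mt-Atp6, mt-Co3 and mt-Nd3 lie from 0.681 to 50.1 CPM per kilobase, far below the other protein-coding rows.

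Complex I takes electrons from NADH at the entry of the respiratory chain, and 6 of its 7 mitochondrial subunit genes were analysed here. Per kilobase the highest of them was mt-Nd1 at 5105 CPM, followed by mt-Nd2 at 1612, mt-Nd4 at 1127, mt-Nd5 at 1001 and mt-Nd6 at 787 CPM, with the copied mt-Nd3 at 50.1 CPM. If all reads of mt-Nd4 came from the 502 bases that chromosome 1 does not copy, it would stand at 3093 CPM, above mt-Nd2. mt-Nd1 (chrM:2751-3707, plus strand) had 4851, 3884, 4230, 4916 and 4921 CPM in wild-type libraries 1 to 5 and 4487, 5754, 4068, 5564 and 6177 CPM in transgenic libraries 1 to 5. Transgenic libraries 2, 4 and 5 lay above every wild-type library and the other 2 within the wild-type range. Between the groups the log2 fold change was 0.19 ± 0.15 (SE; adjusted p = 0.565 by edgeR).

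mt-Nd6 (chrM:13552-14070, minus strand), the complex I subunit gene of the light strand, had 569.5, 471, 302, 455 and 490 CPM in wild-type libraries 1 to 5 and 359, 396, 208, 394 and 441 CPM in transgenic libraries 1 to 5. Of the wild-type libraries 4 lay above every transgenic library, while library 3 lay among them. The log2 fold change was -0.35 ± 0.20 (SE; adjusted p = 0.413 by edgeR), and it stayed below 0 under every alternative tried. A few bases at its end lie opposite the end of mt-Nd5, and the strand setting of the counting is not given in the sources used, which leaves reads there uncertain.

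mt-Nd3 (chrM:9459-9806, plus strand), the lowest of the complex I rows and copied on chromosome 1, had 16.7, 14.1, 14.5, 17.7 and 19.5 CPM in wild-type libraries 1 to 5. In transgenic libraries 1 to 5 it had 10.1, 19.8, 14.0, 23.5 and 24.4 CPM, a wider range that covers all wild-type values. Between the groups the log2 fold change was 0.16 ± 0.21 (SE; adjusted p = 0.773 by edgeR). The remaining complex I rows did not pass the test either. mt-Nd2 had a log2 fold change of -0.05 ± 0.18, mt-Nd4 one of -0.30 ± 0.19 and mt-Nd5 one of -0.19 ± 0.21 (SE).

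mt-Cytb (chrM:14145-15288, plus strand) encodes cytochrome b, the only mitochondrially encoded subunit of complex III. It had 6295, 5188, 4732, 6396 and 6093 CPM in wild-type libraries 1 to 5 and 4763, 6413, 3091, 6101 and 6811 CPM in transgenic libraries 1 to 5. Transgenic library 3 was the lowest of all 10, and transgenic libraries 2 and 5 were the highest. The log2 fold change was -0.08 ± 0.20 (SE; adjusted p = 0.891 by edgeR), and without transgenic library 3 it was 0.067.

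Complex IV, cytochrome c oxidase, passes electrons to oxygen, and its catalytic subunit is encoded by mt-Co1 (chrM:5328-6872, plus strand). mt-Co1 had 10506, 8414, 8852, 9692 and 9562 CPM in wild-type libraries 1 to 5 and 10382, 11189, 8484, 10623 and 12371 CPM in transgenic libraries 1 to 5. The groups overlapped, with transgenic libraries 2, 4 and 5 above every wild-type library. Between the groups the log2 fold change was 0.17 ± 0.14 (SE; adjusted p = 0.584 by edgeR). Per kilobase it was the highest protein-coding row, at 6477 CPM, or 9423 CPM if all its reads came from the 1062 bases that chromosome 1 does not copy.

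The other complex IV rows are those copied on chromosome 1. mt-Co2 (chrM:7013-7696, plus strand) had 4, 5, 7, 10 and 5 counts in wild-type libraries 1 to 5 and 3, 14, 11, 9 and 9 counts in transgenic libraries 1 to 5, too few to be tested. mt-Co3 (chrM:8607-9390, plus strand) had a mean of 1.44 ± 0.519 CPM in wild-type muscle and 1.78 ± 0.724 CPM in transgenic muscle (SD, n = 5 each) and a log2 fold change of 0.29 ± 0.33 (SE; adjusted p = 0.721 by edgeR). Both stand far below mt-Co1, although all 3 genes belong to the same complex. The chromosome 2 copies, which are rows of the table, were low as well. Gm13340, 97.6% identical to mt-Co1, had means of 7.61 CPM in wild-type muscle and 10.3 CPM in transgenic muscle, and Gm13341 had 4.50 and 4.91 CPM. Neither passed the test (adjusted p = 0.245 and 0.784 by edgeR).

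ATP synthase uses the proton gradient to make ATP, and its mitochondrial subunits are encoded by the overlapping genes mt-Atp8 (chrM:7766-7969) and mt-Atp6 (chrM:7927-8607), both on the plus strand. mt-Atp8 had 719.6, 641, 412, 615 and 514 CPM in wild-type libraries 1 to 5 and 699.9, 646, 301, 638 and 699 CPM in transgenic libraries 1 to 5. Library 3 was the lowest of each group, and the groups overlapped (log2 fold change 0.04 ± 0.22, SE; adjusted p = 0.949 by edgeR). mt-Atp6 had 5.36, 5.00, 3.33, 4.81 and 6.06 CPM in wild-type libraries 1 to 5 and 4.28, 5.96, 5.63, 7.70 and 9.97 CPM in transgenic libraries 1 to 5. Transgenic libraries 4 and 5 lay above all others. The log2 fold change of mt-Atp6 was 0.45 ± 0.23 (SE; adjusted p = 0.315 by edgeR), and with library totals and no further scaling it was 0.71 (adjusted p = 0.0336 by edgeR). Without transgenic libraries 4 and 5 it was 0.11 (adjusted p = 0.847 by edgeR), and it ran from 0.27 without transgenic library 5 to 0.58 without transgenic library 1 when each library was left out in turn.

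Ratios between mitochondrial rows of the same library do not depend on how libraries are scaled. In some of them most wild-type libraries lay above every transgenic library, while no protein-coding row passed the test. For every 100 counts of mt-Co1 there were 18.8, 20.4, 13.5, 17.6 and 20.5 counts of mt-Nd4 in wild-type libraries 1 to 5. The same ratio was 13.2, 13.8, 10.5, 13.3 and 14.1 in transgenic libraries 1 to 5. Wild-type libraries 1, 2, 4 and 5 lay above every transgenic library, and wild-type library 3 lay among them. Both rows are copied in part on chromosome 1.

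The ratio of the distal heavy-strand mRNAs mt-Nd4, mt-Nd5 and mt-Cytb to the proximal mRNAs mt-Nd1, mt-Nd2 and mt-Co1 was formed after the values had been seen. It was 0.615, 0.633, 0.503, 0.615 and 0.626 in wild-type libraries 1 to 5 and 0.472, 0.533, 0.365, 0.517 and 0.520 in transgenic libraries 1 to 5. The means were 0.598 ± 0.0539 and 0.481 ± 0.0692 (SD, n = 5 each), and wild-type library 3 again lay within the transgenic range. There were 42.6 counts of mt-Nd5 per 100 counts of mt-Nd1 on average in wild-type muscle and 32.3 in transgenic muscle, and neither gene is copied on chromosome 1. The ranges overlapped, at 30.7 to 48.9 in wild-type muscle and 24.6 to 35.7 in transgenic muscle. There were 60.95 counts of mt-Cytb per 100 counts of mt-Co1 on average in wild-type muscle and 50.4 in transgenic muscle. Here too the ranges overlapped, at 53.5 to 66.0 in wild-type muscle and 36.4 to 57.4 in transgenic muscle. The mt-Nd6 row, whose reads may be of either strand, was also set against these 6 heavy-strand mRNAs. It amounted to 2.04%, 2.08%, 1.40%, 1.73% and 1.83% of them in wild-type libraries 1 to 5. In transgenic libraries 1 to 5 it amounted to 1.49%, 1.38%, 1.11%, 1.46% and 1.41%. Set against mt-Nd5 alone, its heavy-strand neighbour, mt-Nd6 amounted to a mean of 23.5% in wild-type muscle and 21.2% in transgenic muscle. Those ranges overlapped, at 21.7% to 25.1% in wild-type muscle and 19.3% to 23.0% in transgenic muscle. The mt-Nd4, mt-Nd5 and mt-Cytb ratios were not planned, and each sets a row with a log2 fold change below 0 over a row above 0. Since the ratios share rows, they are not separate results. Each of these ratios is a description and has no test. Wild-type library 3 and transgenic library 3 were the lowest of their groups in the mt-Nd4 ratio, the distal ratio and the ratio of mt-Nd6 to the 6 mRNAs.

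The tRNA for methionine was the 1 mitochondrial row called. mt-Tm lies at chrM:3845-3913 on the plus strand, directly before mt-Nd2, and carries the methionine that starts and extends mitochondrial proteins. Its gene sequence is given with the anticodon in capitals, and its 69 bases overlap no copy found on chromosome 1.
mt-Tm: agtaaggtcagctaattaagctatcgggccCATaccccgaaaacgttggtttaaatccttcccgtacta

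mt-Tm had 6, 13, 7, 12 and 14 counts in wild-type libraries 1 to 5 and 38, 25, 25, 30 and 40 counts in transgenic libraries 1 to 5. In CPM these were 0.473, 1.101, 0.388, 0.781 and 1.01 in wild-type muscle and 2.11, 1.16, 1.58, 1.42 and 2.57 in transgenic muscle. Every transgenic library lay above every wild-type library, by a narrow margin between transgenic library 2 and wild-type library 2. The means were 0.751 ± 0.316 CPM and 1.77 ± 0.568 CPM (SD, n = 5 each), and the log2 fold change was 1.24 ± 0.32 (SE; adjusted p = 0.0432 by edgeR), a fold of 2.37. This value ran from 1.02 to 1.38 when each library was left out in turn, and the call was lost when any 1 wild-type library, or transgenic library 1, 4 or 5, was left out (adjusted p from 0.0526 to 0.119 by edgeR). Without transgenic libraries 4 and 5 together it was 1.12 (adjusted p = 0.151 by edgeR). In the authors' deposited table mt-Tm has a log2 fold change of 1.25 and an adjusted p of 0.0158.

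The rows next to mt-Tm did not pass the test. mt-Ti and mt-Tq, the tRNA genes just upstream, had log2 fold changes of 0.38 ± 0.45 and -0.24 ± 0.21, and mt-Nd2 downstream one of -0.05 ± 0.18 (SE). For every 100000 counts of mt-Nd2 there were 24.1, 70.0, 30.1, 45.7 and 51.1 counts of mt-Tm in wild-type libraries 1 to 5 and 141, 63.6, 141, 85.3 and 122 in transgenic libraries 1 to 5. On this scale the groups overlapped, since transgenic library 2 lay below wild-type library 2. Library preparation is described only as standard, and whether it kept fragments as short as a tRNA is not given, so a tRNA row may hold mature tRNA or pieces of the uncut transcript, which cannot be told apart here.

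mt-Ts1, the tRNA gene for serine on the minus strand (chrM:6870-6938), was by far the highest tRNA row, at 10780 CPM per kilobase. Its sequence is printed with the 3 bases that lie opposite the end of mt-Co1 in capitals.
mt-Ts1: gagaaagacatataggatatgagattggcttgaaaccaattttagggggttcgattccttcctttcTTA

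mt-Ts1 had 646, 506, 673, 591 and 759.7 CPM in wild-type libraries 1 to 5 and 734, 783, 819, 851 and 1075 CPM in transgenic libraries 1 to 5. Of the transgenic libraries 4 lay above every wild-type library, and transgenic library 1 lay below wild-type library 5. The means were 635 ± 94.5 CPM and 852 ± 132 CPM (SD, n = 5 each), and the log2 fold change was 0.42 ± 0.14 (SE; adjusted p = 0.113 by edgeR), which did not pass. It passed with library totals and no further scaling (0.67, adjusted p = 0.0101 by edgeR), and in the authors' deposited table it has a log2 fold change of 0.42 and an adjusted p of 0.0498. Both strands are transcribed as long RNAs, and the strand setting of the counting is not given. Over the whole gene, reads of mt-Ts1 and of opposite-strand RNA therefore cannot be told apart, nor from mt-Co1 over the shared bases. For every 100 counts of mt-Co1 there were 6.15, 6.01, 7.61, 6.10 and 7.95 counts of mt-Ts1 in wild-type libraries 1 to 5 and 7.07, 6.996, 9.65, 8.01 and 8.69 in transgenic libraries 1 to 5, with overlap.

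**Figure D4:**
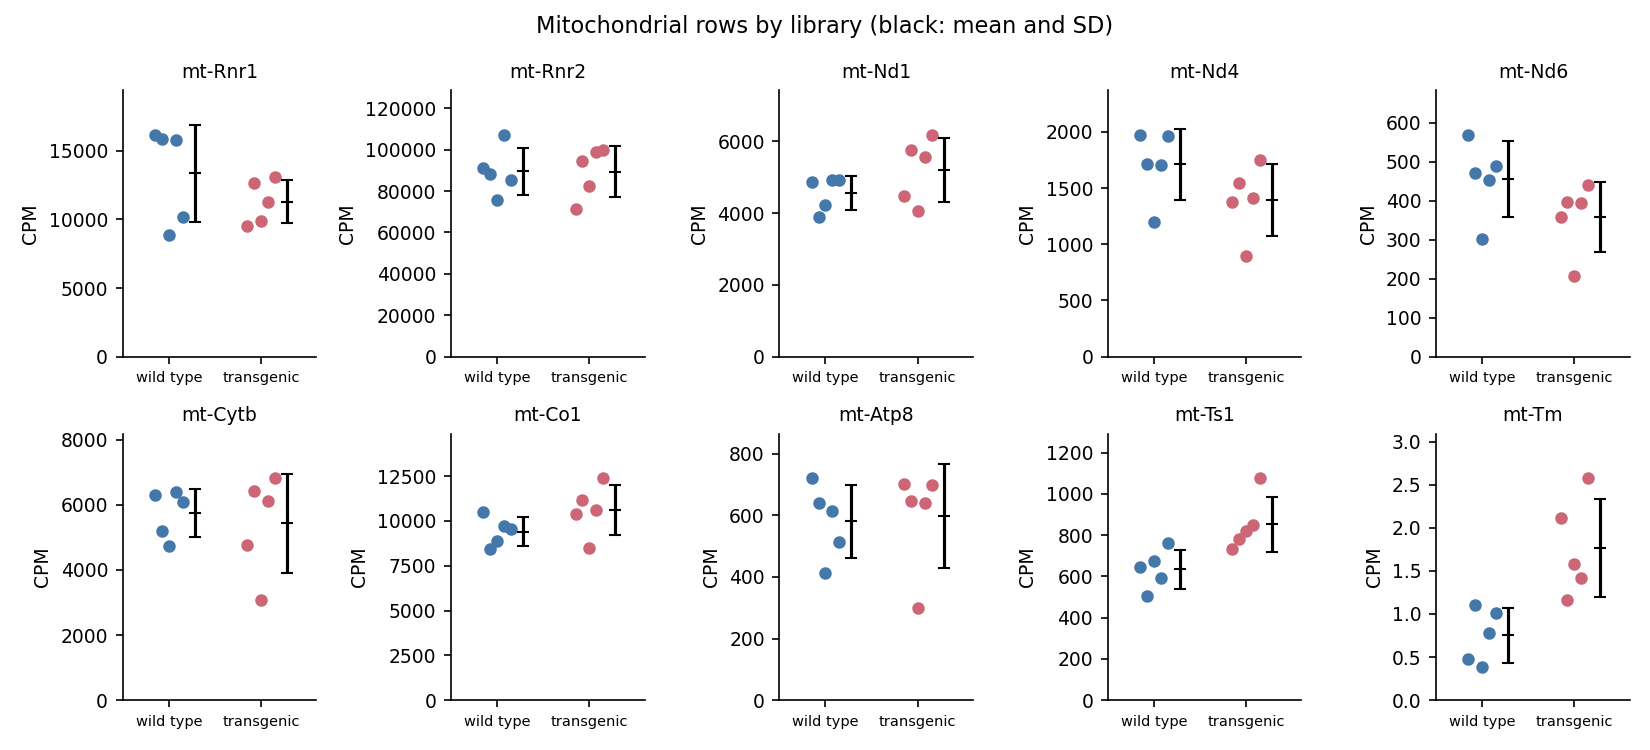
Level in CPM of 10 mitochondrial rows in each library, 1 point per library, with the mean and SD of each group (n = 5 each). The groups overlap in every row shown except mt-Tm, where wild-type libraries lie from 0.388 to 1.101 CPM and transgenic libraries from 1.16 to 2.57 CPM.

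None of the other 9 tRNA rows tested passed. Per kilobase the next highest were mt-Te and mt-Tc, the tRNA genes for glutamate and cysteine, both on the minus strand. mt-Te had a mean of 64.7 ± 17.7 CPM in wild-type muscle and 50.6 ± 9.65 CPM in transgenic muscle (SD, n = 5 each) and a log2 fold change of -0.35 ± 0.19 (SE; adjusted p = 0.368 by edgeR). mt-Tc had 41.2 ± 7.05 CPM and 33.8 ± 6.16 CPM (SD, n = 5 each) and a log2 fold change of -0.28 ± 0.15 (SE; adjusted p = 0.349 by edgeR). The remaining rows had log2 fold changes of -0.23 for mt-Tn, -0.20 for mt-Ty, -0.0053 for mt-Ta, 0.19 for mt-Tg and 0.27 for mt-Tp.

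The nuclear genes that copy, transcribe and process mitochondrial DNA were described from 6 lists with 104 genes, of which 103 are in the table and 100 were tested. Of these, 2 were called higher and 2 lower, 4% of those tested against 5.33% of all genes, a share near the background. The number called was 13 with library totals and no further scaling, where 2014 of all 13338 genes were called. It was 2 without transgenic libraries 4 and 5, where 486 of all 13648 genes were called. The 4 called with TMM scaling were Primpol, Rexo2, Mrm1 and Nsun3. The median log2 fold change was -0.05 over the 100 genes and 0.003 over all genes.

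Among 20 genes of RNA modification, Nsun3 fell and Mrm1 rose, with a list median of -0.06. Nsun3 (chr16:62732444-62786818, minus strand) methylates the wobble cytosine of the mitochondrial methionine tRNA, the product of mt-Tm. It had 9.69, 7.12, 5.88, 8.07 and 10.3 CPM in wild-type libraries 1 to 5 and 4.95, 3.96, 2.40, 3.02 and 2.70 CPM in transgenic libraries 1 to 5. Every transgenic library lay below every wild-type library, and the log2 fold change was -1.26 ± 0.22 (SE; adjusted p = 0.00519 by edgeR). The call held under every alternative tried, with values from -1.43 to -1.16 when each library was left out in turn.

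Mrm1 (chr11:84813061-84819515, minus strand) methylates the large mitochondrial rRNA, the product of mt-Rnr2. It had 2.91, 2.54, 3.27, 2.47 and 1.88 CPM in wild-type libraries 1 to 5 and 5.28, 5.36, 10.9, 5.77 and 5.79 CPM in transgenic libraries 1 to 5. The groups did not overlap, and transgenic library 3 stood well above the other transgenic libraries. The log2 fold change was 1.33 ± 0.23 (SE; adjusted p = 0.00585 by edgeR), and the call held under every alternative tried, with values from 1.08 to 1.40 when each library was left out in turn.

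Among 16 genes of replication and maintenance, Primpol rose, and the list median was 0.03. Primpol (chr8:46575594-46617212, minus strand), a primase and polymerase that restarts stalled replication, had 1.81, 1.86, 1.61, 2.21 and 1.30 CPM in wild-type libraries 1 to 5. In transgenic libraries 1 to 5 it had 3.95, 3.68, 2.53, 3.40 and 2.96 CPM, each above every wild-type library. Between the groups the log2 fold change was 0.91 ± 0.20 (SE; adjusted p = 0.0161 by edgeR), and the call was lost without wild-type library 3 (adjusted p = 0.0618 by edgeR) and without transgenic libraries 4 and 5 together (adjusted p = 0.0520 by edgeR). Cenpu and Gm45607 overlap it on the plus strand, so without strand its reads and theirs cannot be told apart there. Polg, the replicative polymerase, had means of 24.8 CPM and 28.8 CPM (log2 fold change 0.21 ± 0.14, SE; adjusted p = 0.479 by edgeR), and Twnk, the replicative helicase, listed in the table as Peo1, had 12.4 CPM and 12.3 CPM (log2 fold change -0.02 ± 0.15, SE).

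Among 22 genes of RNA processing and stability, Rexo2 fell, and the list median was -0.09. Rexo2 (chr9:48468512-48480623, minus strand), an exonuclease that degrades very short RNAs in mitochondria, had 19.5, 23.3, 19.6, 18.2 and 21.5 CPM in wild-type libraries 1 to 5 and 16.5, 15.2, 15.1, 16.3 and 14.1 CPM in transgenic libraries 1 to 5. The groups did not overlap, and the log2 fold change was -0.40 ± 0.10 (SE; adjusted p = 0.0319 by edgeR). The call was lost on leaving out wild-type library 2 or 5, and likewise for transgenic libraries 2, 4 and 5 (adjusted p from 0.0517 to 0.0909 by edgeR). It was lost too with library totals and no further scaling, where the log2 fold change was -0.14 (adjusted p = 0.458 by edgeR), and without transgenic libraries 4 and 5 together (adjusted p = 0.159 by edgeR). Lrpprc and Slirp, partners that bind and stabilise mitochondrial mRNAs, had log2 fold changes of -0.25 ± 0.09 and -0.11 ± 0.14 (SE; adjusted p = 0.175 and 0.766 by edgeR).

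None of the 8 genes of mitochondrial transcription was called, and their median log2 fold change was -0.17. Polrmt, the mitochondrial RNA polymerase, had means of 12.9 CPM in wild-type muscle and 13.03 CPM in transgenic muscle, with a log2 fold change of 0.011 ± 0.22 (SE; adjusted p = 0.987 by edgeR). Tfam, which packages mitochondrial DNA and starts its transcription, had 34.1 ± 1.13 CPM and 32.6 ± 3.89 CPM (SD, n = 5 each) and a log2 fold change of -0.07 ± 0.10 (SE; adjusted p = 0.809 by edgeR). The smallest p-values of the list belonged to Mterf2 and Mterf4, with log2 fold changes of -0.44 ± 0.23 and -0.24 ± 0.13 (SE; adjusted p = 0.345 for both by edgeR).

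No gene was called in the lists of tRNA charging and of translation factors, which hold no mitochondrial ribosomal proteins. Of 21 mitochondrial aminoacyl-tRNA synthetases and amidotransferase subunits, which load the tRNAs, none passed, with a median of -0.03. Lars2, the leucine enzyme, is not in that list, and its row had a log2 fold change of -0.99 ± 0.30 (SE; adjusted p = 0.0803 by edgeR) with overlapping groups. Together with Gm15564 and Gm15662 this row took 9.62% to 33.9% of each library. Iars2, the highest in the list, had means of 60.9 CPM in wild-type muscle and 59.6 CPM in transgenic muscle. Whether the reads of the Lars2 row come from mRNA of the enzyme was not tested. Sars2, the serine enzyme, had a log2 fold change of -0.48 ± 0.19 (SE; adjusted p = 0.207 by edgeR), and Gatb, a subunit of the glutamine amidotransferase, one of -0.26 ± 0.12 (SE; adjusted p = 0.287 by edgeR). Of 13 translation factors none passed, with a median of -0.06. Tsfm, an elongation factor, had a log2 fold change of 0.32 ± 0.15 and Mtif2, the initiation factor, one of -0.16 ± 0.13 (SE; adjusted p = 0.268 and 0.561 by edgeR).

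**Figure D5:**
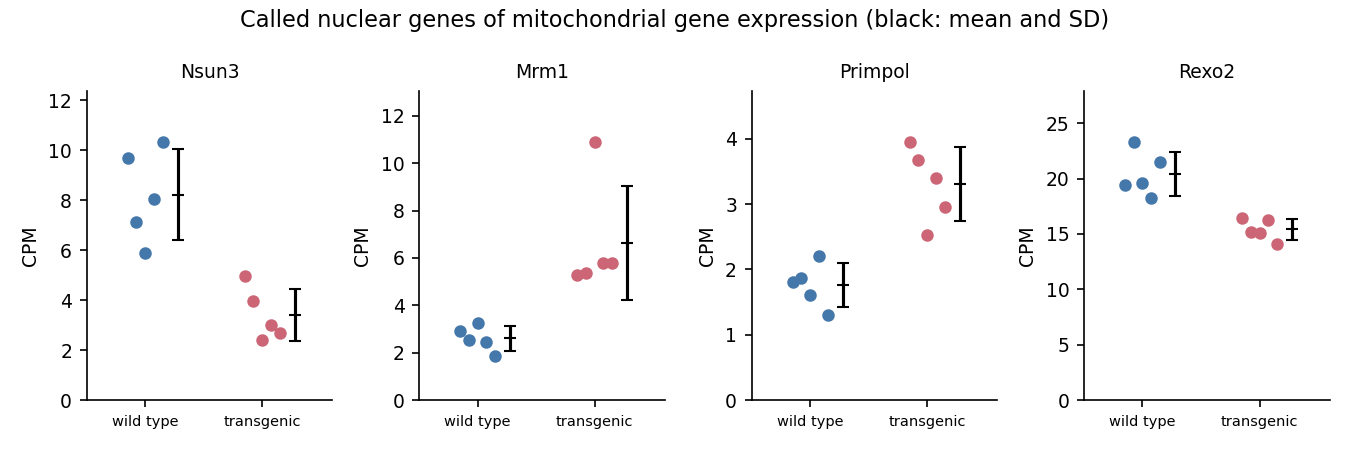
Level in CPM of the 4 called nuclear genes of mitochondrial gene expression, Nsun3, Mrm1, Primpol and Rexo2, with 1 point per library and the mean and SD of each group (n = 5 each). In each of the 4 genes the wild-type and transgenic libraries do not overlap, as in 8.04% of all genes tested. They were chosen because they were called, so this adds nothing to the calls. Sucla2, from the list of replication and maintenance, also does not overlap but was not called (log2 fold change -0.44, adjusted p = 0.146 by edgeR).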

How the data were processed

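RNA of biceps femoris from 10 mice was sequenced. The submitters' processing notes name, without roles, DESeq2 1.10, HTSeq 0.6.1, TopHat2 2.1, Bowtie2 2.2.6, SAMtools 1.2 and the build GRCm38.p4. Neither strand, counting settings nor the annotation release is given in the sources used here. The deposited table holds raw counts per gene, not normalized. The authors also deposited a mean signal per gene, their log2 fold changes with standard errors, a Wald statistic (a score) and p-values. Columns were grouped by name, and 0 columns of libraries were unused.

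Low counts were removed by filterByExpr, and TMM-scaled counts of both groups were compared by the quasi-likelihood test of edgeR 4.0.16 in R 4.3.3, using glmQLFit and glmQLFTest. Transgenic was set against wild type, and p-values of 13338 genes were adjusted after Benjamini and Hochberg, with a threshold of 0.05. Standard errors follow from each fold change and its F statistic. The procedure was tested on simulated data. Mitochondrial sequences were compared with all GENCODE M21 transcripts with blastn 2.17.0, at 90% identity or more over at least 50 bases. Symbols are those of the table, and coordinates those of GENCODE M21.

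Libraries of the same group all differed by more than sampling noise, since the lowest chi-square per degree of freedom in 20 pairs was 14.9. The series names separate mice. At this depth the 95% Wilson interval of a class share is at most 0.0179 percentage points to each side, which covers counting error only.

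The members, gene lists and tests were chosen with earlier results of these data known. Values per library are given for the rRNA rows, the highest and lowest protein-coding row of each complex, mt-Nd6, mt-Ts1 and called rows, and from each nuclear list for called genes, with the pair of smallest p named where none was called, beside Polrmt, Tfam, Twnk, Polg, Lrpprc and Slirp. mt-Ts1 was added to this after its values were seen. The alternatives were DESeq2 size factors, library totals, DESeq2 1.42.0, no filter, library sizes without the mitochondrial rows or without Lars2, Gm15564 and Gm15662, each library left out, and transgenic libraries 4 and 5 left out. The authors' deposited p-values were added after the data had been seen.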

Additional observations from a re-analysis of the deposited data

Results flagged for a closer look

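Of 86 groups of 5 libraries checked, 7 held a library far from the others of its group, where chance gives about 1 in 20 groups. Transgenic library 3 was such a library in 4 of them. In mt-Atp8 it had 301 CPM, while the next had 638 CPM. In counts of mt-Nd4 per 100 counts of mt-Co1 it had 10.5, while the next had 13.2. In Tfam it had 25.8 CPM, while the next had 32.9 CPM, and in Mrm1 it had 10.9 CPM, while the next had 5.79 CPM. Wild-type library 4 had the highest mitochondrial share of its group, 14.0% of counts, while the next had 11.7%. Wild-type library 3 had the lowest ratio of distal to proximal mRNAs of its group, 0.503, while the next had 0.615. Transgenic library 5 had the highest Lrpprc of its group, 87.0 CPM, while the next had 74.6 CPM.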

How the results depend on the processing

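The number of mitochondrial rows called was 1. It was 3 with library totals and no further scaling, 2 with DESeq2, 2 in the authors' deposited table, 0 with no filter, 0 without transgenic libraries 4 and 5, and 0 to 1 when each library was left out in turn. The number of called nuclear genes of mitochondrial gene expression was 4. It was 13 with library totals, 2 without transgenic libraries 4 and 5, and 3 to 6 when each library was left out. mt-Co1 took 0.98 percentage points more of the mitochondrial counts in the transgenic group, 0.62 to 1.21 when each library was left out, and 3.62 points more of the mitochondrial protein-coding counts alone. The mitochondrial share differed by 1.82 to 2.85 percentage points when each library was left out.

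Some log2 fold changes changed sign between settings. With library totals, log2 fold changes turned positive for mt-Rnr1 (0.039), mt-Rnr2 (0.26), mt-Tq (0.038), mt-Nd2 (0.22), mt-Ta (0.26), mt-Tn (0.047), mt-Ty (0.070), mt-Nd5 (0.088), mt-Cytb (0.19), Tfam (0.20), Peo1 (0.22), Lrpprc (0.018) and Slirp (0.16), in a setting where the median of all genes moved by 0.26. Without transgenic libraries 4 and 5 the sign turned for mt-Ta (0.024), mt-Atp8 (-0.081), mt-Nd3 (-0.17), mt-Tp (-0.23) and Peo1 (0.013). Polrmt turned to -0.015 in library sizes without the mitochondrial rows and to -0.015 without Lars2, Gm15564 and Gm15662. When each library was left out, the range crossed 0 for mt-Rnr2 (-0.093 to 0.069), mt-Nd2 (-0.17 to 0.058), mt-Ta (-0.20 to 0.069), mt-Atp8 (-0.098 to 0.21), mt-Tg (-0.017 to 0.35), mt-Cytb (-0.18 to 0.067), Peo1 (-0.18 to 0.039), Polrmt (-0.23 to 0.14) and Tfam (-0.11 to 0.0040). The cause was not tested. No paired analysis was possible because the labels number no replicates, and the column numbers 1 to 5 that both groups carry belong to different mice and are tied to no litter or batch.

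Depth limits the rows with few counts, mt-Tm, mt-Ti, mt-Ta, mt-Tp, mt-Co2 and mt-Co3 among them, where a few reads move a value. With 5 libraries a group, a row that missed the threshold is not shown to be equal in the groups. Reads shared with nuclear copies, and reads of overlapping genes on either strand, remain unassigned in these counts.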

Other observations

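A nuclear row that carries mitochondrial tRNA sequence within its own transcript differed between the groups, and it was picked out after its values had been seen. The transcripts of Cep295 (chr9:15316915-15357788, minus strand), which encodes a centrosomal protein, matched the 71 bases of mt-Tn with 91.5% identity and 62 bases of mt-Tl1 with 93.5% identity. The mt-Tn match runs in the same direction as the transcript, and the mt-Tl1 match runs in the opposite direction. Cep295 had a mean of 19.1 CPM in wild-type muscle and 10.1 CPM in transgenic muscle, and its libraries did not overlap (log2 fold change -0.91 ± 0.17, SE; adjusted p = 0.0072 by edgeR). mt-Tn itself had a log2 fold change of -0.23 and was not called, and mt-Tl1 had too few counts to be tested.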
